A study of Mus musculus with 3 samples.

Results

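Amino acid transporters of the solute carrier families Slc1, Slc3, Slc6, Slc7, Slc36, Slc38 and Slc43 were examined in cultured aortic endothelial cells from Pim1 knockout mice, without this serine/threonine kinase, and from wild-type mice. Members were taken by the gene name printed for each array probe, without regard to any measured value, and came to 54 genes with 92 probes among 19754 named genes. Both groups were of the FVB/N strain, were labelled female and were 12 weeks old, and the cells were primary cultures on gelatine, in medium with added non-essential amino acids, from which RNA was taken 24 hours after seeding. How the Pim1 deletion was made, and which part of the gene it removes, was not given in the sources used here. Each of 3 two-colour arrays carried knockout RNA in Cy5 and wild-type RNA in Cy3, with no dye swap, and the labels called them biological replicates. Dye effects were therefore not balanced, separate wild-type cultures for the 3 arrays are not stated in the labels, and a p-value here reflects array-to-array spread, which may be technical. All ratios are log2 of knockout over wild type.

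Amino acid transporters move amino acids across the plasma membrane and the membranes of organelles, by exchange, by facilitated diffusion or driven by sodium or proton gradients. Several light chains of the Slc7 family that work as exchangers need the glycoprotein heavy chain Slc3a2, known as CD98 or 4F2hc, to reach the cell surface. CD98 also binds integrin beta subunits. In endothelium the cationic transporters of the Slc7 family supply arginine, the substrate of nitric oxide synthase, and several transporter genes are targets of the transcription factor ATF4, which is made when amino acids run short. The gene names also take in relatives that carry other substrates, such as the monoamine transporters Slc6a2, Slc6a3 and Slc6a4, the creatine transporter Slc6a8 and the nucleobase carrier Slc43a3.

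Several facts of the whole series bear on these values. The share of probes above background ran from 53.8% to 57.2% for knockout RNA and from 58.4% to 62.5% for wild-type RNA. The Pim1 probe on the strand of its gene read -0.97, -1.16 and -0.99 on the 3 arrays (mean -1.04, limma adjusted p = 0.00296), and since the deleted stretch is unknown, a probe outside it would check nothing. Of 10 endothelial markers 4 (Cdh5, Erg, Pecam1 and Tie1) were above background on no array in either channel, and 2 were tested. Of the tested ones Eng was higher in the knockout (2.51). Kdr read -0.23 and did not pass (limma adjusted p = 0.229), with signal above background on 3 wild-type arrays and no knockout array. The summed intensity of the list was 3648 to 4365 in the knockout and 1169 to 1347 in the wild type. That sum includes the markers that were not tested. Of 8 fibroblast markers tested 6 were higher and 1 lower in the knockout, and their summed channel intensity ran from 199623 to 225949 in the knockout and from 175787 to 209476 in the wild type. Of 8 mesothelial and epithelial markers 6 were lower, with sums of 6756 to 7228 against 72132 to 94075. The 8 smooth muscle and pericyte markers, of which 1 of 7 tested was higher and 2 lower, summed to 56374 to 59296 against 54379 to 66934. Of 6 macrophage markers Adgre1 and Itgam were above background on no array, 1 of 3 tested was lower, and the sums were 648.4 to 694.2 against 823.6 to 1326. Xist was above background only in the wild-type channel (mean log2 ratio -7.40), although both groups were labelled female. The Y-linked Ddx3y (3.63), Eif2s3y (4.92) and Kdm5d (2.24) were above background only in the knockout channel, on all 3 arrays. Uty, also Y-linked, was above background on 2 knockout arrays and no wild-type array (0.32, limma adjusted p = 0.0719). The channels thus differed in sex-linked transcripts as well as in genotype, and the effects of the 2 cannot be told apart. The part of these differences in the transporter values was not tested, and in bulk RNA a change in the share of cells of one type cannot be told apart from a change per cell.

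Not all transporter genes were measurable. Testing required a signal well above background, for either RNA, on 2 or more arrays, and 44 of the 92 probes and 28 of the 54 genes met this. The Slc43 family was tested in full (3 of 3 genes), as were 9 of 14 Slc7 genes, 3 of 4 Slc36 genes, 3 of 5 Slc38 genes, 3 of 7 Slc1 genes, 1 of 2 Slc3 genes and 6 of 19 Slc6 genes. Of the 26 genes not tested, 19 were above background in no channel on any array with any probe. Among them were the glutamate transporters Slc1a1, Slc1a2, Slc1a3 and Slc1a7, Slc36a2, the glutamine carriers Slc38a3 and Slc38a5, the Slc7 genes Slc7a9, Slc7a10, Slc7a12, Slc7a13 and Slc7a14, and several Slc6 genes. The other 7, namely Slc3a1, Slc6a2, Slc6a3, Slc6a4, Slc6a7, Slc6a11 and Slc6a13, were detected on 1 array, for wild-type RNA only. Not being above background does not show that a transcript was absent.

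Of 28 tested transporter genes, 5 passed the test (limma, Benjamini-Hochberg adjusted p under 0.05 over all probes), against 20.1% of all 13457 genes tested. One was higher, the glycine transporter Slc6a9, and 4 were lower, Slc7a7, Slc7a3, Slc6a15 and Slc43a1, where 8.67% of all genes were higher and 11.4% lower. Slc6a15 was admitted to the test through its wild-type signal alone. With both RNAs required to be detected on every array 3 of 22 members passed, 1 higher and 2 lower. Of all 11959 genes in that setting 2333 passed, 1081 higher and 1252 lower. In the main test the share of members called is near that of all genes. Counted by probe, 9 of the 44 passed, 5 higher and 4 lower, against 17.1% of all 25075 probes (7.62% higher and 9.52% lower). No member reached a 2-fold mean change, as 6.95% of all genes did, and 25 of 28 members stayed under 1.5-fold (89.3% against 84.0% of all genes). The median log2 ratio was -0.01 for the members and -0.02 for all genes, and 14 members lay above 0 and 14 below. At an unadjusted p under 0.05 there were 12 of the 28 members and 4845 of the 13457 genes. In what follows a gene is represented by its brightest tested probe, positions are those of the array files (mm8), and ± is the SD over 3 arrays.

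**Figure D1:**
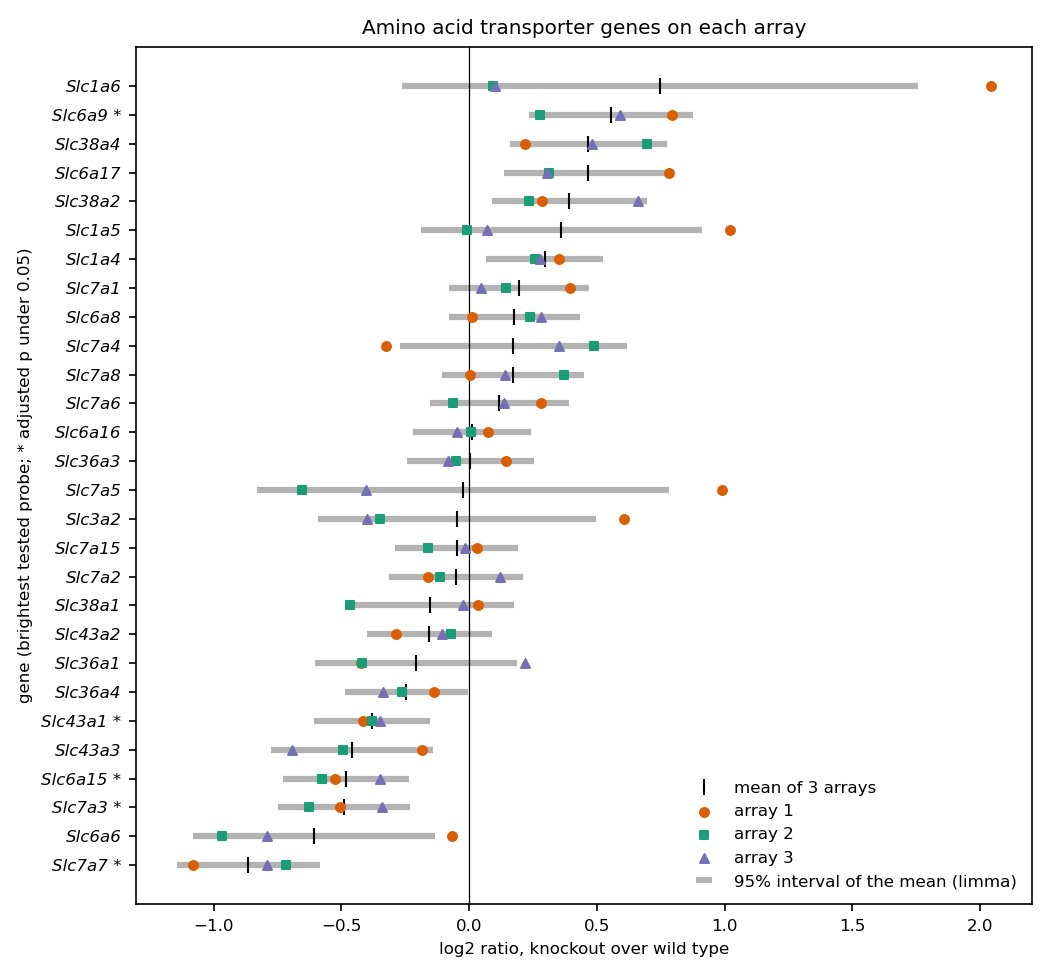
Log2 ratio of knockout over wild type (x axis) of the 28 tested transporter genes (y axis), with the 3 arrays as points, the mean as a tick and its 95% interval from limma as a grey bar. The 5 genes marked with an asterisk passed the adjusted test, Slc7a7 at the bottom has the lowest mean (-0.86), and array 1 stands far to the right of the others for Slc1a6, Slc7a5, Slc1a5 and Slc3a2.

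Slc7a7, the light chain y+LAT1 that exchanges cationic for neutral amino acids in complex with Slc3a2, fell most among the tested members. Its probe at chr14:53324534-53324593 had normalised log2 intensities of 9.08, 8.85 and 8.79 in the knockout and 10.17, 9.57 and 9.58 in the wild type. The ratios were -1.08, -0.72 and -0.79, all below 0, and the groups did not overlap. The mean of -0.86 ± 0.19 was 1.82-fold lower in the knockout (limma adjusted p = 0.0080, 95% interval -1.14 to -0.58). The call was lost without replicate 2 (adjusted p = 0.0564) or replicate 3 (adjusted p = 0.0778), with means of -0.94 and -0.90. Loss of the human gene causes lysinuric protein intolerance.

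The promoters of Slc7a7 are shown because this gene had the clearest change and was the only one of the tested members with a promoter in the reference table whose upstream bases held the letters of an amino acid response element. The 250 bases before each annotated transcription start (RefSeq, GRCm38.p6) were searched on both strands for TGATGNAA, the core of the element bound by ATF4 and C/EBP factors, and for the E-box CACGTG. Promoters were found for 35 of the 54 member genes and for 18 of the 28 tested ones. TGATGNAA stood in 2 of the 31 windows of tested members, both of Slc7a7, and in 3.45% of all 32851 windows in the table. The capitals mark TGATGNAA, which begins 141 bases before the start in the first window, at chr14:54417945-54418194 on the minus strand, and 243 bases before it in the second, at chr14:54417703-54417952 on the minus strand.
Slc7a7 first start: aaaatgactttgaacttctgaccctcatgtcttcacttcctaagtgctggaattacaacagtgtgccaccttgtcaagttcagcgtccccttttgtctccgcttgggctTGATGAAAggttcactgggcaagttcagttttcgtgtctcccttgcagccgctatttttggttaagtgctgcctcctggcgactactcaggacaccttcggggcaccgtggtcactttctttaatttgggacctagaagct
Slc7a7 second start: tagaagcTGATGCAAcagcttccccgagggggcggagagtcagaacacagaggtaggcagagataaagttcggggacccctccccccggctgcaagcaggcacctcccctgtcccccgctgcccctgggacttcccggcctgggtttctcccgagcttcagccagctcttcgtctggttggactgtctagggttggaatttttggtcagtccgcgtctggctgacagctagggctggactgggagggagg
The other 3 annotated starts of Slc7a7 held neither motif. A match of letters does not show that a factor binds there.

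The E-box CACGTG, the motif bound by Myc and Max, stood in 4 of the 31 windows of tested members and in 6.02% of all windows. The 4 windows belonged to 4 genes, Slc43a1, Slc1a6, Slc36a1 and Slc6a16. Slc43a1 is shown as the one of these that passed the test. Its E-box, in capitals, begins 64 bases before the start in the window at chr2:84840073-84840322 on the plus strand.
Slc43a1: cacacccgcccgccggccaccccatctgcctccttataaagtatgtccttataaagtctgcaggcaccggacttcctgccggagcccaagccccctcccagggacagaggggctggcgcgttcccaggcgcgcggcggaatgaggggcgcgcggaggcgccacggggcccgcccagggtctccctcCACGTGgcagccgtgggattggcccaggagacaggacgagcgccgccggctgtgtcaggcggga
No window of the called gene Slc6a9 held either motif, and the table held no entry for Slc7a3 or Slc6a15.

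Slc43a1, the facilitated carrier LAT3 of large neutral amino acids, was dim and had a small fall that was even over the arrays in the main setting. At chr2:84663951-84664010 it read -0.41, -0.38 and -0.35 in that setting, the narrowest spread among the called members. The mean was -0.38 ± 0.033, or 1.30-fold lower (adjusted p = 0.0434). Intensities of 6.71, 6.63 and 6.68 in the knockout lay below the 7.13, 7.01 and 7.03 of the wild type on every array. By the log ratio of the scanner software the value was -0.89, and the call was lost with median centring (adjusted p = 0.142), with probes above background in both channels only (adjusted p = 0.0530) and without replicate 2 or replicate 3 (0.236 and 0.221).

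Slc7a3, the cationic transporter CAT3, lies on chromosome X at chrX:97282040-97282099 in a comparison whose channels differed at Xist. It read -0.50, -0.63 and -0.34, with a mean of -0.49 ± 0.14 that was 1.41-fold lower in the knockout (adjusted p = 0.0314). All 3 knockout intensities (7.07, 6.83 and 6.90) were below all 3 wild-type intensities (7.57, 7.46 and 7.24). The creatine transporter Slc6a8, the other tested member on chromosome X, read 0.01, 0.24 and 0.28 and did not pass (adjusted p = 0.306). The Slc7a3 call was lost with median centring (0.108) and without replicate 2 or replicate 3 (0.213 and 0.135).

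Slc6a15, a sodium-dependent carrier of branched-chain amino acids and proline, was near the limit of detection. Its probe at chr10:102848442-102848501 was detected on all 3 arrays for wild-type RNA and on none for knockout RNA. The ratios were -0.52, -0.57 and -0.35 (adjusted p = 0.0296). Because the knockout value is only a bound, the fold is one too, estimated from the channel means at 1.40-fold lower in the knockout. Those means were 6.14 in the knockout and 6.62 in the wild type. The estimate leaves out the spread over arrays, and the 95% interval of the mean log2 ratio was -0.73 to -0.23. Bounds of this kind compare single channels and are open to dye bias. The scanner software's log ratio, which replaced the knockout signal by a surrogate on all 3 arrays, read -3.01. The call was lost with median centring (0.0678) and without replicate 2 or replicate 3 (0.204 and 0.138).

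Slc6a9, the glycine transporter GlyT1, rose 1.47-fold. The ratios were 0.80, 0.28 and 0.59 at chr4:117367162-117367221, all above 0, with intensities of 11.57, 10.67 and 11.08 in the knockout and 10.78, 10.39 and 10.49 in the wild type. The ranges of the channels overlap across arrays, since the lowest knockout intensity lies below the highest wild-type one. Each array's own ratio was positive. The mean was 0.55 ± 0.26 (adjusted p = 0.0409). The call was lost with an offset of 0 (0.0525), the software's log ratio (0.0691), median centring (0.0894), no filter on dim probes (0.0607) and without replicate 2 or replicate 3 (0.0957 and 0.219). Glycine is also handled by the serine and one-carbon enzymes, where the glycine decarboxylase Gldc read -3.64, -2.97 and -2.51 (-3.04 ± 0.57, adjusted p = 0.00132).

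**Figure D2:**
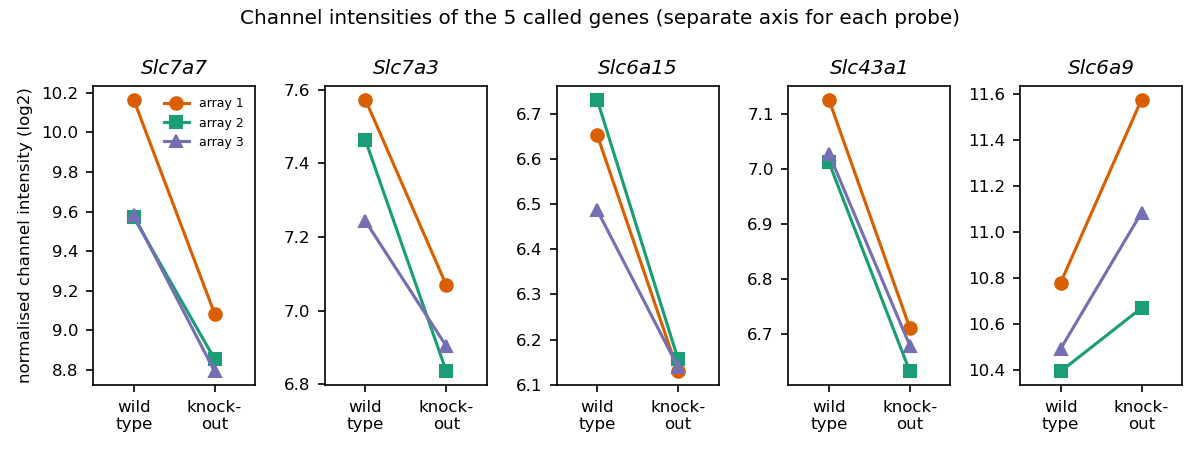
Normalised log2 channel intensity (y axis, a separate scale for each probe) of the 5 called genes in wild type and knockout, with a line for each array. Lines fall on all 3 arrays for Slc7a7, Slc7a3, Slc6a15 and Slc43a1 and rise on all 3 for Slc6a9. Intensities of different probes cannot be compared.

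Array 1 differed from arrays 2 and 3 at a small set of transporters. Slc7a5, the light chain LAT1 that imports leucine and other large neutral amino acids, read 0.99 on array 1 but -0.66 and -0.41 on arrays 2 and 3. Its partner Slc3a2 read 0.61, -0.35 and -0.40, and a second Slc3a2 probe 0.86, -0.22 and -0.28. The heavy chain and its most studied light chain thus went the same way on each array. Slc1a5, the glutamine exchanger ASCT2, read 1.02, -0.0097 and 0.07. Slc1a6, the glutamate transporter EAAT4, read 2.04, 0.09 and 0.10. These 4 genes were singled out after their values were seen, and none passed over the 3 arrays (adjusted p = 0.973, 0.914, 0.326 and 0.273 in that order). Their 95% intervals are wide, from -0.83 to 0.78 for Slc7a5, -0.59 to 0.50 for Slc3a2, -0.19 to 0.91 for Slc1a5 and -0.26 to 1.76 for Slc1a6, so the data do not show that they were equal in both genotypes.

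The distance of array 1 from the mean of arrays 2 and 3 was 1.95 for Slc1a6, 1.52 for Slc7a5, 0.99 for Slc1a5 and 0.98 for Slc3a2, which put them between the 98.5th and the 99.9th percentile of all genes. The taurine transporter Slc6a6 (0.81) came next. At the other end the distance was -0.75 for Slc7a4, a relative of the cationic transporters, which read -0.33, 0.49 and 0.35. Across the 28 members, which are not independent replicates, Pearson's r of the ratios was 0.857 for arrays 2 and 3, 0.352 for arrays 1 and 2, and 0.361 for arrays 1 and 3. Over all genes the same pairs gave 0.926, 0.702 and 0.717.

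**Figure D3:**
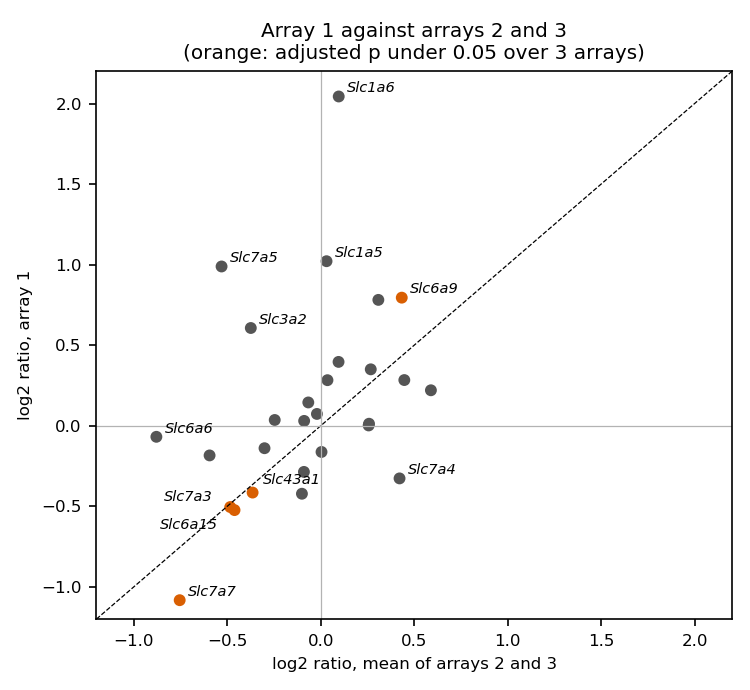
Log2 ratio on array 1 (y axis) against the mean of arrays 2 and 3 (x axis) for the 28 tested transporter genes, with equality as a dashed line and called genes in orange. The called genes, which were called from these same 3 arrays, have the same sign on both axes. Slc1a6, Slc7a5, Slc1a5 and Slc3a2 lie 0.98 to 1.95 above the dashed line.

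Without replicate 1, a fit with 2 arrays, 14 of the 28 members passed, against 42.3% of all 13168 genes tested in that fit. Of these 5 were higher (21.2% of all genes) and 9 lower (21.1%), and all 5 members called with 3 arrays were among the 14. Because this fit reuses arrays 2 and 3, it gives those 5 calls no independent support. Slc7a5 (-0.53, adjusted p = 0.00061) and Slc3a2 (-0.37, adjusted p = 0.0110) were then lower, whereas Slc1a5 (0.03) and Slc1a6 (0.10) did not pass (adjusted p = 0.873 and 0.568). Slc7a5 and Slc3a2 were singled out because array 1 differed, so leaving it out removes most of their spread. Their calls in this fit are therefore no independent support. The same limit applies to Slc6a6, whose distance of array 1 was at the 96.9th percentile of all genes. The widest change among members was that of Slc6a6 (-0.88, adjusted p = 4.46e-07), followed by Slc7a7 (-0.75), Slc43a3 (-0.59, adjusted p = 0.00015) and the neutral amino acid carrier Slc38a4 (0.59, adjusted p = 0.00017). Without replicate 2 or without replicate 3, none of the 25 members then tested passed with limma, where 715 of 13070 and 616 of 13307 genes did. At an unadjusted p under 0.05 there were 7 of the 25 members in each case, and 3141 and 3271 genes.

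Of the 3 tested Slc38 genes, sodium-coupled carriers of neutral amino acids, none passed by its brightest probe. Slc38a2, the carrier SNAT2 that cells induce when amino acids are short, had 4 tested probes with mean ratios of 0.38 to 0.54. Its brightest probe, at chr15:96516094-96516153, read 0.28, 0.24 and 0.66 and missed the threshold (0.39 ± 0.23, adjusted p = 0.0849). Each of the other 3 probes passed (adjusted p = 0.0342, 0.0435 and 0.0490). The mean of the probes passed as well (0.46, adjusted p = 0.0366), so the call depends on the probe. All 4 probes of Slc38a2 read above 0 on each of the 3 arrays. They measure the same RNA samples, so they do not add replicates.

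Slc1a4, the carrier ASCT1 of alanine, serine and cysteine, also passed by 1 probe and missed by the other. Its brightest probe read 0.35, 0.26 and 0.28 (0.30 ± 0.049, adjusted p = 0.0858) and its second 0.40, 0.33 and 0.40 (0.38 ± 0.044, adjusted p = 0.0452). Slc38a1, the carrier SNAT1, had 6 tested probes with means from -0.15 to 0.17, none of which passed. Its brightest probe had a 95% interval of -0.48 to 0.18.

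Slc38a4 and Slc6a17, a vesicular carrier of neutral amino acids, were dim and just missed. Slc38a4 read 0.22, 0.70 and 0.48 (0.47 ± 0.24, adjusted p = 0.0568) and its wild-type signal was detected on 2 of 3 arrays. It passed with an offset of 0 (1.02, adjusted p = 0.0205) and read 2.48 (adjusted p = 0.0297) with the software's log ratio, where 1 wild-type value was a surrogate. Slc6a17 read 0.78, 0.31 and 0.31 (0.47 ± 0.27, adjusted p = 0.0675), and its 2 other probes had adjusted p = 0.0575 and 0.0739. It passed with an offset of 0 (0.90, adjusted p = 0.0471) and with the software's log ratio (1.46, adjusted p = 0.0353).

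**Figure D4:**
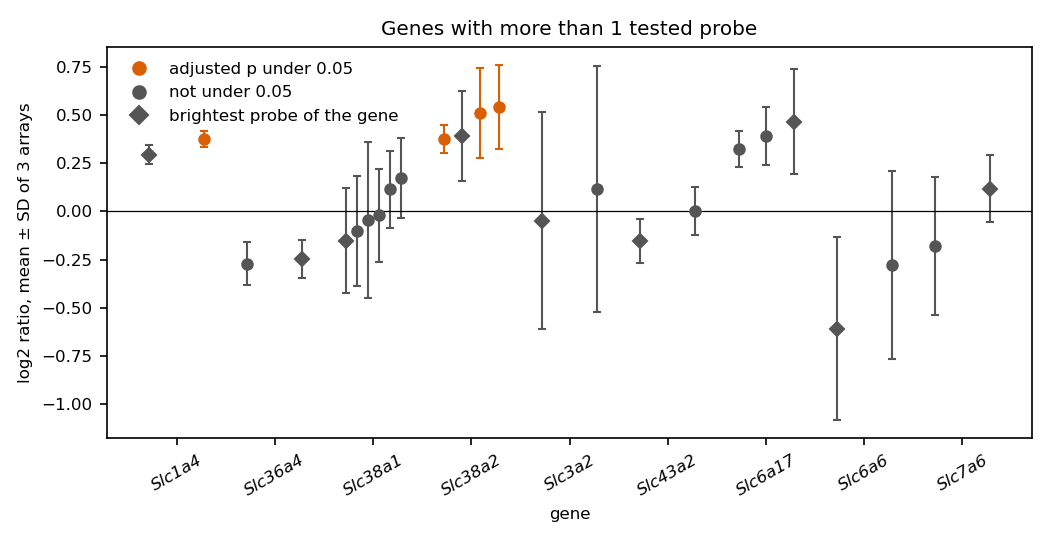
Mean log2 ratio ± SD over 3 arrays (y axis) of each tested probe for the 9 genes with more than 1 (x axis). Probes of Slc38a2 and Slc1a4 lie above 0 on both sides of the threshold, those of Slc36a4 and Slc6a6 lie below 0, and those of Slc38a1, Slc3a2, Slc43a2 and Slc7a6 lie on both sides of 0.

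Apart from Slc7a7 and the cationic transporter Slc7a3, no tested Slc7 gene passed over the 3 arrays. The light chain Slc7a6 (y+LAT2) had a mean of 0.12 ± 0.17 (adjusted p = 0.519), and its second probe -0.18. The neutral exchanger Slc7a8 (LAT2) had 0.17 ± 0.19 (adjusted p = 0.355), was detected on 2 arrays for knockout RNA and on none for wild-type RNA, and read 2.30 with the software's log ratio (adjusted p = 0.00411). The arginine transporter Slc7a1 (CAT1) had 0.20 ± 0.18 (adjusted p = 0.288) and an interval of -0.08 to 0.47. Slc7a2 (CAT2) had -0.05 ± 0.15 (adjusted p = 0.788) and an interval of -0.31 to 0.21. The ratio of Slc7a4 was 0.17 ± 0.44 (adjusted p = 0.569).

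Of the tested genes of the Slc36 family, which includes proton-coupled carriers of small amino acids found partly on lysosomes, none passed. Slc36a1 (PAT1) read -0.42, -0.42 and 0.22 (adjusted p = 0.432). Slc36a4 (PAT4) had 2 probes with means of -0.25 and -0.27 (adjusted p = 0.147 and 0.123). Slc36a3 was detected on 2 arrays for wild-type RNA only, with a mean of 0.0038 (adjusted p = 0.986).

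A pair of relatives with other substrates had ratios below 0 on all 3 arrays without passing. The taurine transporter Slc6a6 read -0.07, -0.97 and -0.79 (-0.61 ± 0.48, adjusted p = 0.0868), and its second probe 0.16, -0.81 and -0.19. The nucleobase carrier Slc43a3 read -0.18, -0.49 and -0.70 (-0.46 ± 0.26, adjusted p = 0.0654). The remaining tested members lay within 0.16 of 0 on the log2 scale, with Slc43a2 (LAT4) at -0.16 (adjusted p = 0.344, and -1.54 with the software's log ratio, where the knockout value was a surrogate on 2 arrays), Slc7a15 at -0.05 (0.78) and the orphan carrier Slc6a16 at 0.01 (0.956).

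Genes that share the pathway were read from lists of amino acid enzymes and sensors, each against the 20.1% of all genes called (8.67% higher, 11.4% lower). In the amino acid response and ATF4 list 6 of 21 genes were higher and 2 lower, with a median of 0.15. The pseudokinase Trib3 rose 2.68-fold (1.23, 1.64 and 1.39, adjusted p = 0.00195), Stc2 rose 3.14-fold (2.45, 1.34 and 1.16, adjusted p = 0.0143) and the glutathione-degrading enzyme Chac1 rose 1.72-fold (adjusted p = 0.0115). The transcription factor Cebpb rose 2.33-fold (adjusted p = 0.0127), and the stress factor Atf3 fell by 0.77 on the log2 scale (adjusted p = 0.0261). Among 19 enzymes of glutamine, glutamate, aspartate and proline, 5 were higher, led by Gfpt2 of hexosamine synthesis (1.60 ± 0.25), and glutamate dehydrogenase Glud1 was lower (-0.59 ± 0.041).

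Of 12 serine, glycine and one-carbon enzymes tested 3 were higher and 1, Gldc, was lower, with a median of 0.49. Of 15 arginine and polyamine enzymes 2 were higher and 2 lower, and 1 of the lower genes, the arginase Arg1, was detected on 2 arrays for wild-type RNA and on none for knockout RNA. Gatm, which uses arginine and glycine to make the creatine precursor, rose 3.40-fold (1.77 ± 0.34) and the argininosuccinate synthase Ass1, which remakes arginine from citrulline, rose 1.98-fold (0.98 ± 0.31). Of 31 genes of amino acid sensing by mTORC1, the kinase complex that couples amino acids to growth, 4 were higher and 2 lower, and the called ratios ran from -0.57 for Rragb to 0.65 for Sesn2, which is also in the ATF4 list. Of 11 genes of the methionine cycle and glutathione synthesis 1 was higher and 2 lower, among them Gclc (-1.11 ± 0.39), the catalytic subunit of the first step of glutathione synthesis. Of 12 branched-chain and aromatic enzymes 1 was higher and 1 lower, and of 9 transporter-associated proteins 2 were higher.

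Of 12 amino acid carriers of other families 1 was higher and 1 lower. The mitochondrial aspartate and glutamate carrier Slc25a13 read -0.94, -1.08 and -0.88 and was 1.95-fold lower in the knockout (adjusted p = 0.00355), and the lysosomal cationic carrier Slc66a1 rose 1.44-fold (adjusted p = 0.0248). Of 23 genes of cytosolic aminoacyl-tRNA synthetases and their complex, which charge tRNAs with the imported amino acids, 2 passed, Yars (0.73 ± 0.21) and Cars (0.64 ± 0.34), both higher.

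Array 1 also stood apart in several of these lists, in some of them in the direction opposite to that at Slc7a5 and Slc3a2. The median ratio of the tRNA synthetases was 0.31 on array 1 and -0.13 and -0.03 on arrays 2 and 3. That of the serine and one-carbon enzymes was 0.84 on array 1 and 0.29 and 0.19 on the others. In the opposite direction, the median of the branched-chain and aromatic enzymes was -0.43 on array 1 against 0.07 and -0.11. That of the mTORC1 sensing genes was -0.14 on array 1 against 0.25 and 0.08. Over the transporters themselves the medians were 0.03, -0.07 and 0.02. Fibroblast markers also differed on that array, with medians of 1.31 on array 1 and 1.97 and 1.76 on the others, as did mesothelial markers (-2.03, -0.93 and -1.01). Smooth muscle and pericyte markers had medians of 0.15 on array 1 and -0.45 and -0.57 on the others, and macrophage markers -0.75 against 0.01 and -0.21. Their part in the transporter values was not tested.

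**Figure D5:**
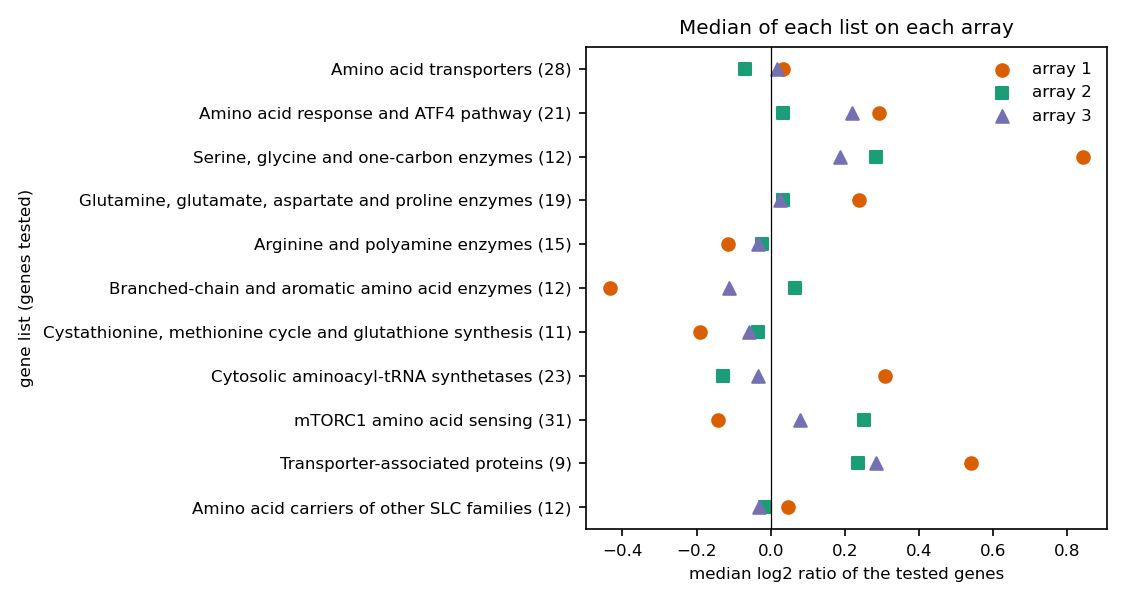
Median log2 ratio of the tested genes (x axis) of the transporters and of 10 related lists (y axis, genes tested in parentheses) on each array. Array 1 lies apart from arrays 2 and 3 for the serine and one-carbon enzymes (0.84), the tRNA synthetases (0.31) and the branched-chain and aromatic enzymes (-0.43).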

How the data were processed

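Per the file headers, the pixel intensities of 45018 spots per array came from Agilent Feature Extraction, version 9.5.3.1 in the submitters' processing notes. The deposited log10 ratio of the value table equalled the software's log10 ratio (largest difference 0). The 3 arrays shared 1 slide and 1 scan date.

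Mean pixel intensities went through normexp against the local background (offset 50), then loess within each array gave log2 ratios, with control and outlier-flagged spots at weight 0. The offset pulls dim probes towards 0. No spot was saturated. Spots of 1 probe were averaged (41174 probes), and 25075 probes were tested. Genes of the whole table were named through RefSeq (GRCm38, names only), and 253 probes against their gene's strand were left out, 1 of them a member probe of Slc1a2. An intercept model in limma 3.58.1 (R 4.3.3) compared each probe's mean ratio with 0, and p-values were adjusted by Benjamini-Hochberg across the tested probes. Channel intensities were further normalised with Aquantile. The pipeline was tested on simulated data. Members, lists and alternatives were chosen with earlier results of these data known. Some genes of these families are not reported here. Every tested member was named, and array values were set to be given for called members and for any with a log2 ratio of at least 1 in size. Array values of other members, and the list genes named, were added after seeing the data. Array number limits the precision.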

Additional observations from a re-analysis of the deposited data

How the results depend on the processing

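The number of transporters called was 5 with all arrays and lay between 0 and 14 when 1 replicate was left out, and that of all genes was 2707 and lay between 616 and 5570. With array weights 12 members and 4522 genes were called, and with an adjusted p under 0.01 there were 1 and 960. With median centring 1 member was called (all genes 1866, of which 55.6% were higher against 43.1%). With both RNAs required to be detected on every array 3 members of 22 and 2333 genes of 11959 were called. In the other settings the member count was between 4 and 7. Median centring moved the median of all genes by 0.098. Signal over background limited the test to 28 of 54 members. The main test is already paired, since each ratio sets knockout against wild-type RNA on 1 array. With 1 group of ratios no further pairing was possible.

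The sign changed for members whose ratio was near 0, none of which passed in those settings, and the cause was not tested. With median centring it did for Slc36a3 (-0.0025), Slc38a1 (0.11), Slc3a2 (0.21), Slc7a2 (0.019) and Slc7a5 (0.13). With no background subtraction it did for Slc36a3 (-0.071), Slc6a16 (-0.027) and Slc7a15 (0.10), and with median pixel intensities for Slc36a3 (-0.0068) and Slc6a16 (-0.029). With the software's log ratio and the identical deposited table it did for Slc36a3 (-0.42) and Slc7a15 (0.29), with scaling for Slc36a3 (-0.0055), with array weights for Slc36a3 (-0.047), Slc6a16 (-0.016) and Slc7a2 (0.012), and with the mean of a gene's probes for Slc3a2 (0.035) and Slc7a6 (-0.031). Leaving out 1 replicate gave -0.067 for Slc36a3 without replicate 1, the one such setting in which it was tested, and ranges of -0.25 to 0.0052 for Slc38a1, -0.37 to 0.13 for Slc3a2, -0.020 to 0.040 for Slc6a16, -0.14 to 0.0042 for Slc7a2 and -0.53 to 0.29 for Slc7a5; without replicate 1, a setting in which Slc3a2 and Slc7a5 passed as lower, their signs stayed as with all arrays.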
